A study of Homo sapiens with 4 samples.

Results

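The peaks described here are the ChIP-seq peaks called at the centromeres of the acrocentric chromosomes, 13, 14, 15, 21 and 22. A peak belonged to the set when its summit, the base with the most signal, fell in hg38 at 16 to 19 Mb of chromosome 13 or 14, 17 to 21 Mb of chromosome 15, 5 to 13.5 Mb of chromosome 21 or 10 to 17.5 Mb of chromosome 22. These windows cover 26 Mb and were drawn by position alone. They held 338 of the 5307 peaks in the control list (6.37%, 95% Wilson interval 5.74 to 7.06) and 939 of the 15993 peaks in the TGF-β1 list (5.87%, 5.52 to 6.25).

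The series profiled human cells labelled HSC, typed as stem cells and progenitors. One group was the control, and the other received transforming growth factor β1 (TGF-β1), a secreted cytokine, at 20 ng/mL for 2 h. Each group gave 1 immunoprecipitated (ChIP) library and 1 input library, which is chromatin sequenced without the antibody step. The labels of both groups carry a treatment protocol that also names GDF11, a related ligand, at 100 ng/mL, and the sources used here do not say whether any cells received it. They do not name the antibody either, so the protein or mark behind the peaks is unnamed below. Cell identity could not be checked against marker genes, since the files hold peaks and no expression values.

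With 1 ChIP library per condition there is no replicate check, and every difference below is one between 2 libraries. Intervals are 95% and cover counting error only, with peaks taken as independent. Peaks cluster, so the intervals are narrower than they should be and are no test between chromosomes or lists. The libraries differed in ways that touch every value. After removal of duplicates the control ChIP library held 36280696 tags of 60 bp and the TGF-β1 ChIP library 45984282 tags of 43 bp. Their inputs held 66537905 and 46802425 tags. Each list was called against its own input, so length of list, tag length and input depth cannot be told apart from treatment.

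Acrocentric chromosomes carry their centromere close to one end. Beyond it lies a short arm of repeats that holds the tandem ribosomal RNA genes, around which nucleoli form. The centromere itself is built on α-satellite DNA, a short AT-rich unit (the monomer) repeated head to tail and grouped into longer repeats, and the kinetochore assembles on part of it. The arrays of chromosomes 13 and 21 are nearly alike, as are those of 14 and 22, and hg38 represents them by modelled sequence. A short read from such an array can be placed on either chromosome, so the chromosome assigned to a peak is uncertain. Some copies of hg38 prepared for alignment mask arrays of this kind, and the sources used here do not say which copy served.

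Chromosome 13 held most of the peaks in both lists. It carried 227 control peaks (67.2% of the acrocentric peaks, 62.0 to 71.9) and 719 TGF-β1 peaks (76.6%, 73.8 to 79.2), or 75.7 and 239.7 peaks per Mb of its window. Chromosome 21 followed in the control list with 63 peaks and chromosome 15 in the TGF-β1 list with 99. Chromosome 14 had 2 control peaks and 4 TGF-β1 peaks in a window as wide as that of chromosome 13. Per Mb, chromosomes 15, 21 and 22 had 5.5, 7.41 and 3.2 control peaks and 24.8, 7.76 and 6.8 TGF-β1 peaks. These rates divide by the full width of each window, empty spans included. The exact Poisson interval of chromosome 13, 198 to 259 control peaks and 667 to 774 TGF-β1 peaks, lay above those of the other 4 chromosomes in either list.

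The gap in peak numbers between the lists was uneven. Over all 5 chromosomes the TGF-β1 list had 2.78 times as many peaks as the control list (exact interval 2.45 to 3.16), beside 3.03 times (2.93 to 3.13) in the rest of the genome, where 4969 and 15054 peaks lay. The ratio was 4.5 on chromosome 15 (22 and 99 peaks, 2.81 to 7.504) and 3.17 on chromosome 13 (2.72 to 3.69). It was 2.13 on chromosome 22 (24 and 51 peaks, 1.28 to 3.61). Chromosome 21 stood apart with 63 and 66 peaks, a ratio of 1.05 (0.730 to 1.504). Its interval and that of the rest of the genome did not overlap, nor did the intervals of chromosomes 15 and 21. These intervals ignore clustering. Across 19 bins of 100 kb on chromosome 13 the variance of peak numbers was 2.47 (control) and 3.05 (TGF-β1) times the mean. With 6 peaks in all, the ratio on chromosome 14 ran from 0.287 to 22.1 and says little.

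**Figure D1:**
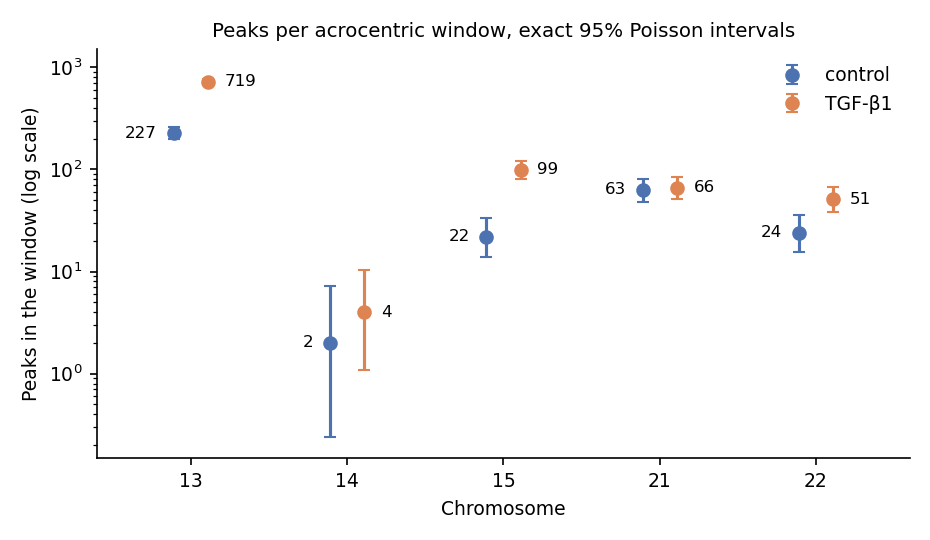
Number of peaks in the windows of the 5 acrocentric chromosomes in the control and TGF-β1 lists, with exact Poisson 95% intervals that cover counting error only. Chromosome 13 has 227 and 719 peaks, while chromosome 21 has nearly equal numbers, 63 and 66.

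As a set, the peaks of these centromeres were tall and weakly enriched, but the TGF-β1 peaks off chromosome 13 were much less so. Pileup, the number of ChIP fragments stacked on the summit, had a median of 100 among control peaks and 77 among TGF-β1 peaks, against 22 and 19 in the rest of each list. Fold enrichment, the pileup plus 1 over the local background plus 1, had a median of 2.204 and 2.59, against 3.05 and 3.55 elsewhere. The local background is what the caller expects at the site from the input and the genome-wide average. It had a median of 46.9 tags in the control members and 28.5 in the TGF-β1 members, which is 23.6 and 12.3 times the genome-wide value of each library. A background above 5 times the genome-wide value, called high below, lay under 306 of the 338 control peaks (90.5%) and 774 of the 939 TGF-β1 peaks (82.4%), while the shares of the whole lists were 40.6% and 17.4%. The same was seen at the centromere and flanks of chromosome 1, with median pileups of 126 and 90, median folds of 2.38 and 2.62 and high background under 99.5% and 95.7% of peaks. Without chromosome 13 the acrocentric medians were 139 (control) and 25 (TGF-β1) for pileup and 1.95 and 3.19 for fold. Their local backgrounds were then 38.7 and 2.97 times the genome-wide value. The part of the high background in the peak calls was not tested.

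A fold of at least 5 was reached by 4 control peaks (1.18%) and 8 TGF-β1 peaks (0.852%), below the shares of the whole lists, 4.56% and 6.11%. The authors' −log10 q, which grows with depth as well as with fold, was at least 10 in 127 control peaks (37.6%, list 26.2%) and 293 TGF-β1 peaks (31.2%, list 8.76%). Chromosome 13 held 100 and 286 of those. The peak with the highest −log10 q among the control members lay on chromosome 13 at 16486749 to 16486912, in no RefSeq gene, where 240 fragments stacked up over a background that gave a fold of 2.85 (−log10 q 37.1). Among TGF-β1 members it lay on the same chromosome at 17239832 to 17239984, also in no gene, with pileup 113, fold 4.14 and −log10 q 28.9. Neither overlapped a peak of the other list.

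The 2 lists differed in pileup most where chromosome 13 was left out. On chromosome 13 the median pileup was 98 for control and 86 for TGF-β1 peaks, or 2.70 and 1.87 per 1000000 ChIP tags. On chromosome 21 it was 153 and 33, or 4.22 and 0.718 per 1000000. On chromosome 15 it was 80 and 21, and on chromosome 22 it was 82 and 29. The control value of chromosome 15 falls between 11 peaks over high background and 11 over low background. Their median pileups were 7.61 and 0.634 per 1000000 tags, beside 0.957 and 0.435 for TGF-β1 peaks. Of the control peaks over high background there, 9 formed a single run with pileups of 184 to 293. The local background moved with these values: on chromosome 21 its median was 40.9 times the genome-wide value in the control list and 5.09 times in the TGF-β1 list, on chromosome 15 it was 21.7 and 2.25 times, and on chromosome 13 it was 22.5 and 13.998 times. Fold ran the other way, with medians of 1.87 and 2.63 on chromosome 21, 2.53 and 3.43 on chromosome 15, and 2.27 and 2.48 on chromosome 13.

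Since 1 tag is kept per position and strand, pileup cannot pass a ceiling of 296 (control) or 272 (TGF-β1). The highest control peaks came close to it, at 293 on chromosomes 15 and 21, which is 98.99% of the ceiling. The highest TGF-β1 peak, on chromosome 13, reached 244, or 89.7%. At least 50% of the ceiling was reached by 78 control peaks (23.1%, list 23%) and 45 TGF-β1 peaks (4.79%, list 1.89%). The control share of these centromeres was thus near that of its whole list. On chromosome 21 it was 33 of 63 control peaks against 4 of 66 TGF-β1 peaks.

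**Figure D2:**
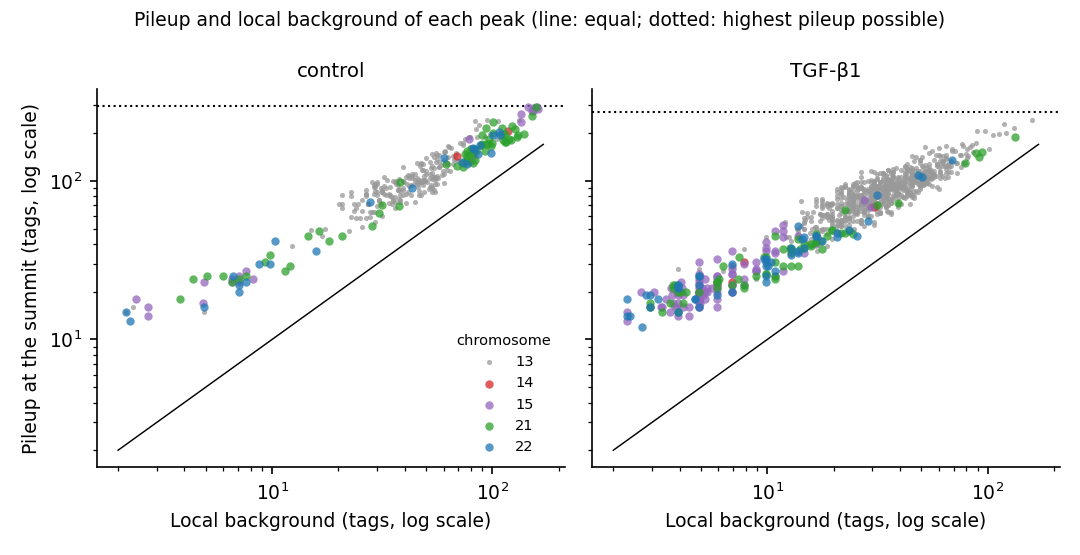
Pileup at the summit (y axis) against local background (x axis) of each acrocentric peak, on log scales, with a panel for each list and chromosomes by colour. The solid line marks equal values, and the dotted lines mark the ceilings of 296 and 272 fragments set by keeping 1 tag per position. Medians on chromosome 13 are 98 and 86, whereas on chromosome 21 they are 153 and 33.

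Split by local background, chromosomes 15, 21 and 22 had more TGF-β1 peaks per control peak where the background was low than where it was high. The whole lists went the same way, with high background under 2152 of 5307 control and 2790 of 15993 TGF-β1 peaks (40.6% and 17.4%). Over high background chromosome 21 had 54 control and 34 TGF-β1 peaks, a ratio of 0.630 (0.397 to 0.985). It is the 1 chromosome with an interval wholly below 1. Chromosome 15 had 11 and 11, and chromosome 22 had 15 and 20. Over low background the 3 chromosomes had 11 and 88, 9 and 32, and 9 and 31 peaks, in the order 15, 21 and 22, ratios of 8, 3.56 and 3.44. Chromosome 13 had just 3 and 11 peaks over low background, so its ratio of 3.16 over high background (224 and 708 peaks) is nearly that of all its peaks. This split was chosen after the data were seen.

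Peak lengths were short in both lists and tied to the fragment length. Control members had a median length of 169.5 bp and TGF-β1 members one of 164 bp, with minima of 148 bp and 136 bp, which equal the fragment lengths that the caller used. The rest of each list had medians of 177 bp and 159 bp. On chromosome 13 both medians were 164 bp. On chromosomes 15, 21 and 22 control peaks were longer (222, 192 and 190 bp) than TGF-β1 peaks (163, 161.5 and 155 bp). The longest TGF-β1 peak in the genome was a member, at 16323319 to 16323931 of chromosome 13 (613 bp, pileup 75, fold 2.67). The longest control member covered 950 bp of chromosome 15, from 19778106 to 19779055, with a pileup of 288 and a fold of 1.88.

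Most peaks stood in a few stretches. Joining summits of either list that lay less than 100 kb apart, and keeping runs of at least 10 summits, gave 7 stretches with 292 control and 857 TGF-β1 peaks. The largest was on chromosome 13, from 16011358 to 18051102 (2.04 Mb), with 222 control and 715 TGF-β1 peaks. Its first summit lay 11.4 kb inside the window. The second was on chromosome 15 from 18276697 to 19907030 (1.63 Mb), with 18 and 89 peaks. Chromosome 21 had 3 stretches of 121, 86.1 and 537 kb and chromosome 22 had 2 of 64.0 and 403 kb. Chromosome 14 had none.

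**Figure D3:**
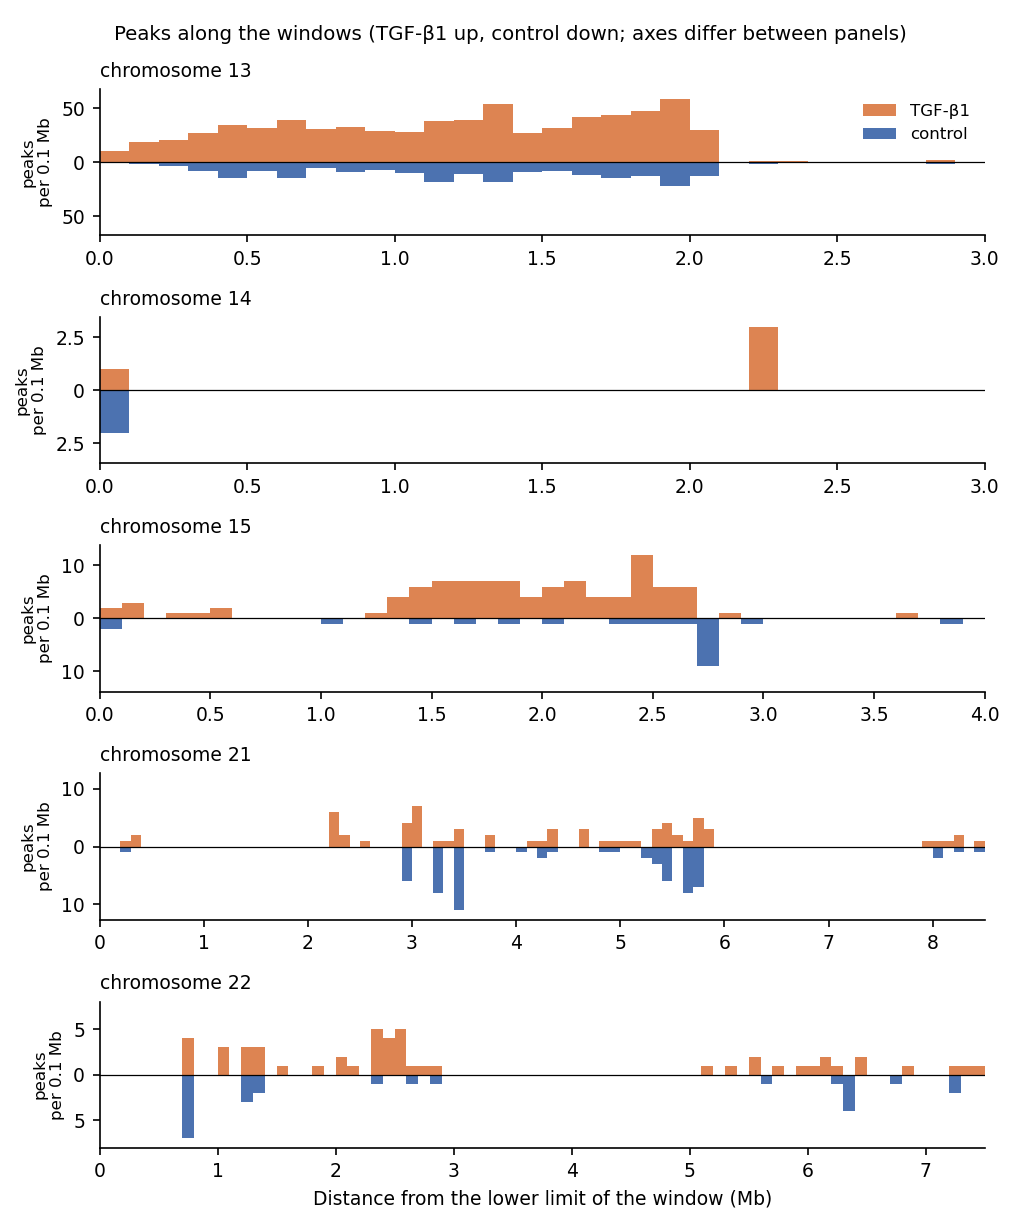
Peak numbers in 100 kb bins along each window, by distance from the window's lower limit (Mb), for both lists. Peaks fill about 2 Mb of chromosome 13, while chromosomes 14, 21 and 22 each have an empty span of over 2 Mb.

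Within the chromosome 13 stretch both lists varied together along its length. In its 19 full bins of 100 kb the control list had 2 to 22 peaks (median 10) and the TGF-β1 list 19 to 59 (median 33). The lowest and the highest bins were the same in both lists: the bin from 0.1 to 0.2 Mb past the window's lower limit held 2 and 19 peaks, and the bin from 1.9 to 2 Mb held 22 and 59. Over the 19 bins the counts had a Pearson correlation of 0.876 and a Spearman correlation of 0.848. Neighbouring bins share repeats and all bins share the same 2 ChIP and 2 input libraries, so this is a description. The median TGF-β1 pileup per full bin ran from 75 to 100. The bin at the stretch's lower edge, which it fills only in part, held 0 control peaks and 10 TGF-β1 peaks with a median pileup of 31.5.

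Summits lay closest together on chromosome 13. The median distance between neighbouring summits of 1 list there was 5.68 kb for control and 1.88 kb for TGF-β1 peaks. On chromosome 15 it was 86.7 and 12.3 kb. Chromosomes 21 and 22 showed the opposite order, with 7.18 and 29.8 kb on 21 and 17.5 and 39.5 kb on 22. Control peaks were thus nearer one another than TGF-β1 peaks on chromosomes 21 and 22 although they were fewer.

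**Figure D4:**
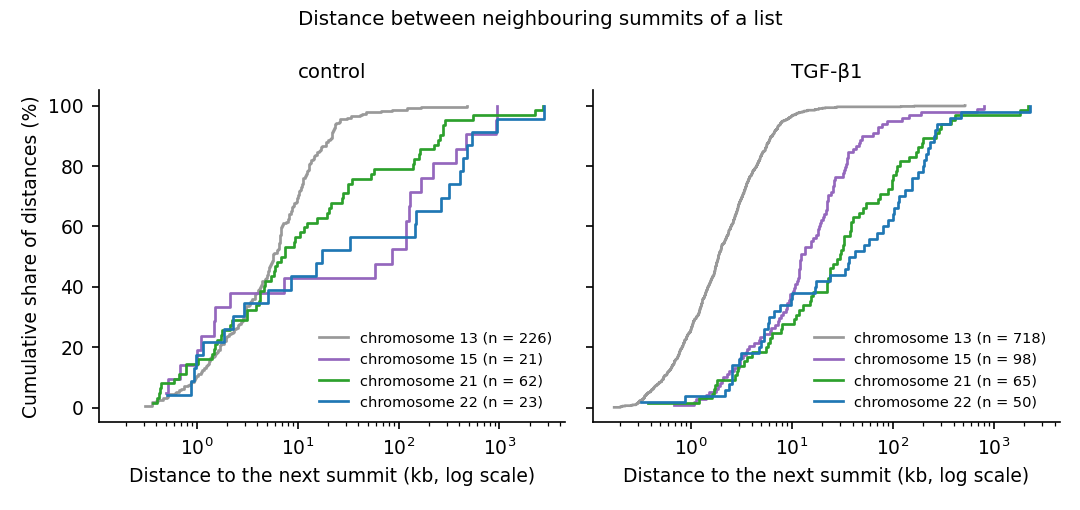
Cumulative share of the distances between neighbouring summits of the same list (log scale, kb) on chromosomes 13, 15, 21 and 22. Medians are shorter in the TGF-β1 list on chromosomes 13 and 15 and shorter in the control list on 21 and 22.

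Because α-satellite repeats at a fixed period, distances between summits were set against multiples of the monomer length. Of the distances from 100 to 5000 bp between any 2 summits of 1 list, 37 of 203 control distances (18.2%, 13.5 to 24.1) and 176 of 1352 TGF-β1 distances (13.02%, 11.3 to 14.9) lay within 10 bp of a multiple. Evenly spread distances would give 12.4%, and the whole lists gave 12.4% and 12.8%. Within 20 bp the shares were 28.1% (22.3 to 34.6) and 25.1% (22.8 to 27.5), where an even spread gives 24.3%. The control interval lay above the even value at 10 bp and held it at 20 bp, and the TGF-β1 interval held it at both. With distances up to 2000 bp the shares within 10 bp were 23.2% (15.8 to 32.6) and 14.1% (11.4 to 17.4), where an even spread gives 12.2%. The distances share peaks and are not independent, so these intervals are narrower than they should be. No preference for the monomer's period was measurable at 10 bp in the TGF-β1 list.

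Most of the overlap between the lists lay on chromosome 13. A TGF-β1 peak was met, by at least 1 bp, by 172 of the 338 control peaks (50.9%, 45.6 to 56.2), against 14.4% of the whole control list. From the other side a control peak was met by 174 of the 939 TGF-β1 peaks (18.5%, 16.2 to 21.1), against 4.81% of the whole TGF-β1 list. On chromosome 13 the counts were 161 of 227 control peaks (70.9%, 64.7 to 76.5) and 163 of 719 TGF-β1 peaks (22.7%). TGF-β1 peaks covered 6.39% of the bases of the chromosome 13 stretch and control peaks 1.97%. On the other 4 chromosomes together 11 of 111 control peaks (9.91%) and 11 of 220 TGF-β1 peaks (5%) overlapped.

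On chromosome 15 the count was 0 of 22 control and 0 of 99 TGF-β1 peaks, and the Wilson limits allow shares of up to 14.9% and 3.73%. The closest pair of summits from the 2 lists there was 265 bp apart. Chromosome 21 had 7 overlapping peaks in each list (11.1% of the control and 10.6% of the TGF-β1 peaks) and chromosome 22 had 4 in each (16.7% and 7.84%). On chromosome 13 the median distance from a control summit to the nearest TGF-β1 summit was 19 bp, and 147 of the 227 (64.8%) had one within 50 bp. On chromosomes 15, 21 and 22 that median was 58.6, 11.5 and 35.8 kb.

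Where a control peak met a TGF-β1 peak, the summits nearly coincided. Over the 172 pairs, each control peak with its TGF-β1 partner, the median offset was 10 bp, 121 pairs (70.3%) were within 20 bp and 156 (90.7%) within 50 bp. The largest offset was 201 bp. Pairs were chosen by overlap of short peaks, which limits the offset by construction. Unscaled pileup had medians of 98 (control) and 105 (TGF-β1) and was higher in the TGF-β1 library in 135 pairs, lower in 33 and equal in 4. Pileup per 1000000 tags had medians of 2.70 (control) and 2.28 (TGF-β1), and it was lower in the TGF-β1 library in 167 of the 172 pairs (median ratio 0.837, lowest 0.505, highest 1.07). The direction between the libraries thus turned with the division by total tags, which multiplies each TGF-β1 to control ratio by 0.789. Fold was nearly balanced, with medians of 2.204 and 2.24 and the TGF-β1 value higher in 88 pairs. Pileup correlated across pairs with a Pearson coefficient of 0.971 and a Spearman coefficient of 0.943, and fold with 0.651 and 0.670. The pairs share the same 2 libraries and mostly the same stretch, so these too are descriptions.

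The tallest peak of chromosome 13 was the same site in both lists. The control peak ran from 17170429 to 17170754 and the TGF-β1 peak from 17170441 to 17170715, outside any RefSeq gene, and both had a pileup of 244. Their folds were 1.84 (control) and 1.53 (TGF-β1), over backgrounds of 132.5 and 159.2 tags. On the same chromosome the TGF-β1 peak at 17399504 to 17399676 had a pileup of 106 and a fold of 3.89 where the overlapping control peak had 90 and 2.84. The pair with the highest TGF-β1 fold was on chromosome 22 at 12895894 to 12896117, with a pileup of 19 and a fold of 5.25 against 20 and 2.60 in the control.

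**Figure D5:**
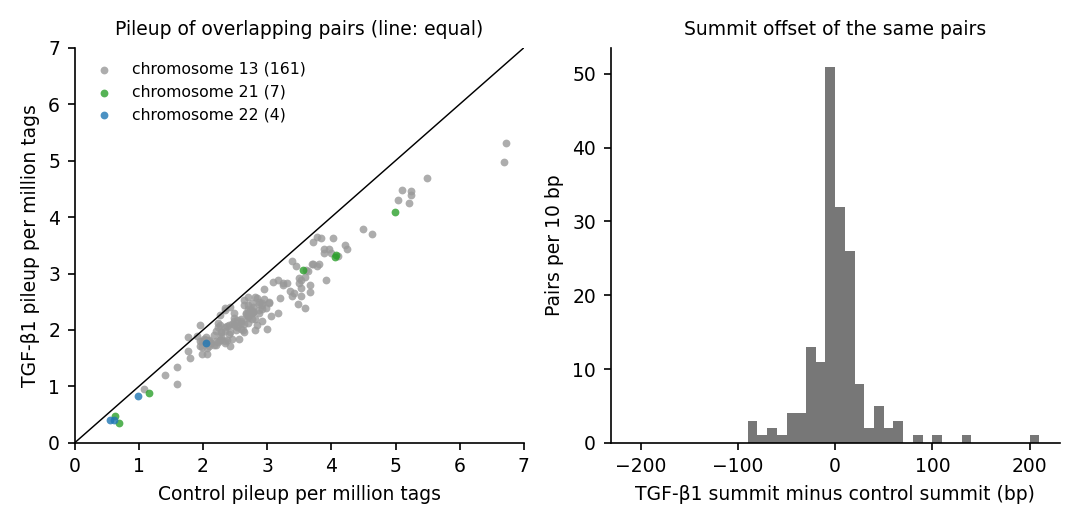
Pileup per 1000000 ChIP tags in the control (x axis) and the TGF-β1 library (y axis) for the 172 control peaks that overlap a TGF-β1 peak, with the line of equal values. On this scale 167 points lie below the line, whereas the unscaled pileup was higher in the TGF-β1 library in 135 pairs.

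Tight runs were defined as at least 5 summits of 1 list that follow each other at under 10 kb. Away from chromosome 13 there were 5 control runs and 3 TGF-β1 runs. A pair of the control runs, on chromosome 21 beside the ribosomal RNA genes, had TGF-β1 summits inside: 1 in the run of 8 peaks at 8228595 to 8247229 and 2 in the run of 7 peaks at 8412051 to 8429545. The other 3 control runs held none, and the TGF-β1 runs held no control summit. On chromosome 15 a control run of 9 peaks filled 19775403 to 19789807, with pileups of 184 to 293, local backgrounds of 78.5 to 160.9 tags and folds of 1.73 to 2.33. No TGF-β1 summit lay inside it, and the nearest was 82.9 kb away. The TGF-β1 peaks of the chromosome 15 stretch had a median pileup of 21 and formed no tight run. On chromosome 21 a control run of 5 peaks at 10655496 to 10664188 had pileups of 135 to 184, and the nearest TGF-β1 summit was 19.4 kb away. A TGF-β1 run of 5 peaks at 10788799 to 10807328 had pileups of 42 to 48, 37.2 kb from the nearest control summit.

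On chromosome 22 a control run of 5 peaks at 10717215 to 10724361 had pileups of 127 to 203 and lay 43.3 kb from the nearest TGF-β1 summit. A TGF-β1 run of 8 peaks at 12490724 to 12528945 had pileups of 29 to 52 and folds of 2.08 to 3.59, with the nearest control summit 103.5 kb away. Away from chromosome 13 the peaks of control runs stood on backgrounds of 76.9 tags or more and those of TGF-β1 runs on 24.6 or less. TGF-β1 peaks within 100 kb of the ribosomal RNA genes, among them those inside control runs, had backgrounds of 78.6 to 132.6 tags. Treatment, tag length and input depth cannot be told apart here.

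The ribosomal RNA genes of chromosome 21 had control peaks beside them but none inside. hg38 places the 3 precursor genes RNA45SN2 (8205988 to 8219302), RNA45SN3 (8389035 to 8402343) and RNA45SN1 (8433222 to 8446572), which encode the 45S transcript cut into ribosomal RNAs, in this short arm. Within 100 kb of them lay 19 control and 5 TGF-β1 peaks, and 0 of either list had a summit in the 3 genes. The nearest summits were 3.82 and 3.22 kb from a gene. Control pileups ran from 129 to 257 (median 177) and TGF-β1 pileups from 129 to 188 (median 151). Local backgrounds were among the highest, with medians of 114 and 91.4 tags, and folds were low, 1.42 to 1.94 and 1.41 to 1.70. TGF-β1 peaks overlapped 4 of the 19 control peaks, among them the tallest TGF-β1 peak of chromosome 21 at 8428816 to 8429022 (pileup 188, fold 1.41).

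Chromosomes 14, 21 and 22 each had a long span with no summit of either list. It ran from 16098421 to 18244779 on chromosome 14 (2.15 Mb), from 10807219 to 12984350 on chromosome 21 (2.18 Mb) and from 12896003 to 15185647 on chromosome 22 (2.29 Mb). In each case it was the longest empty span of that chromosome. The longest in the windows of chromosomes 13 and 15 were 0.359 and 0.773 Mb. On chromosome 21 the span parted 59 control and 60 TGF-β1 peaks below it, with median pileups of 155 and 36, from 4 and 6 peaks above it, with 24.5 and 21. A masked reference would leave such spans, and its part was not tested.

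Few of the peaks lay in genes. In the RefSeq table for the build, 337 genes touch the windows and 34 of them are protein-coding. A summit lay in a gene body in 17 control (5.03%, list 34.7%) and 25 TGF-β1 peaks (2.66%, list 41.3%). In a protein-coding gene it lay in 1 control (0.296%, list 25.3%) and 5 TGF-β1 peaks (0.532%, list 31.3%). The part of gene density in these low shares was not tested. Off chromosome 13 the shares were 13 of 111 (11.7%) and 23 of 220 (10.5%). Exons and introns were not told apart.

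Among protein-coding genes, POTEB2, of the POTE ankyrin family, had 1 control peak at 20841140 to 20841299 of chromosome 15 (pileup 14, fold 4.03) and 0 TGF-β1 peaks. TPTE, a testis-expressed phosphatase-like membrane protein of chromosome 21, had 0 and 2, with a highest fold of 4.64. POTEH, XKR3 and CECR2 on chromosome 22 each had 0 control peaks and a single TGF-β1 peak, with folds of 2.22, 4.46 and 4.55. CECR2 is a bromodomain chromatin remodelling factor and XKR3 a member of the XK membrane protein family. One or 2 peaks are too few to set the lists apart at any of these genes. Of the 34 genes in a list of window genes put together for this report, 3 carried control peaks (8.82%) and 7 carried TGF-β1 peaks (20.6%). Over all 337 window genes the numbers were 10 (2.97%) and 17 (5.04%). The list took in the POTE, BAGE, GOLGA and ANKRD20A families, olfactory receptor genes and the ribosomal RNA genes. The olfactory receptor genes OR11H1 and OR11H12, POTEM and the interleukin 17 receptor gene IL17RA were among those with 0 in both lists.

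Among the remaining genes the pseudogene BAGE2 on chromosome 21 had the most peaks, 6 control and 4 TGF-β1, with highest folds of 2.96 and 2.98. It spans 10413497 to 10518274. FAM230C, a long non-coding RNA gene of chromosome 13, had 2 and 1, control first, and 1 of the control peaks reached pileup 226 at fold 2.57 and −log10 q 28.7, the third highest −log10 q of the control members. ANKRD30BP1 on chromosome 21, a pseudogene, held the control peak of highest fold on that chromosome (13405470 to 13405653, pileup 24, fold 4.66), and its neighbour ANKRD30BP2 held the highest fold among TGF-β1 peaks (13114994 to 13115170, pileup 22, fold 4.85). Neither gene had a peak of the other list in its body. Of 77 RefSeq promoter windows in these regions, from 250 bases before to 50 after a gene's start, 0 overlapped a peak of either list, and the nearest lay 4.50 and 3.06 kb away. The share over all promoter windows of the genome was not counted, so the 0 cannot be called particular to these regions. No file used here holds the sequence under the peaks, so none is printed.

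The strongest enrichment by fold fell on small peaks. The highest control fold was 5.55 on chromosome 15 at 19906888 to 19907171, with a pileup of 18. The highest TGF-β1 fold was 5.88 on chromosome 13 at 16034527 to 16034695, with a pileup of 28, ahead of chromosome 22 (15318791 to 15318938, pileup 18, fold 5.73) and chromosome 15 (17174871 to 17175006, pileup 20, fold 5.72). None of these 4 lay in a gene or overlapped a peak of the other list. The most isolated control peak was on chromosome 15 at 18030839 to 18031009, 245.8 kb from any other summit (pileup 16, fold 4.54), and the most isolated TGF-β1 peak was on chromosome 21 at 7595118 to 7595260, 270.2 kb away (pileup 15, fold 3.69).

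Overlapping and other peaks of chromosome 13 differed in height in the TGF-β1 list. Its 163 overlapping peaks had a median pileup of 106 and a median length of 190 bp, and the other 556 had 79 and 160 bp. Median fold ran the other way, 2.22 and 2.54, over backgrounds of 46.2 and 30.5 tags. In the control list the 161 overlapping peaks and the other 66 had median pileups of 98 and 92. Off chromosome 13 the 11 overlapping control peaks stood on a median background of 18.1 tags and the other 100 on one of 78.2.

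Few peaks lay just outside the windows. Within 1 Mb beyond the limits lay 11 control and 20 TGF-β1 peaks, with 0 below any lower limit. Whether reads could be placed below the lower limits was not tested, so the 0 there cannot be read as a lack of signal. The closest one outside was a control peak on chromosome 21 with its summit at 13512232, 12.2 kb past the limit (fold 4.45), and the last control summit inside was at 13405547, 94.5 kb before it (fold 4.66).

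Beside other centromeres the acrocentric set lay between the 2 sets compared in its ratio of peak numbers. The centromere and flanks of chromosome 1 held 615 control and 1031 TGF-β1 peaks, a ratio of 1.68 (1.52 to 1.86). The centromeres of chromosomes 7 and 12 held 114 and 791, a ratio of 6.94 (5.70 to 8.52). The acrocentric ratio of 2.78 had an interval apart from both. The share of control peaks shared with the TGF-β1 list was 61.0% (57.1 to 64.8) on chromosome 1 and 44.7% (35.9 to 53.9) on chromosomes 7 and 12, and the interval of the acrocentric share, 50.9%, lay below the former and crossed the latter. Without chromosome 13 the acrocentric share of 9.91% (5.62 to 16.9) was lower than in either, and the intervals did not overlap. All these intervals ignore the clustering of peaks and are no test between the sets.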

How the data were processed

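ChIP and input chromatin from control and TGF-β1-treated cells was sequenced, 1 library each (4 in all), and samples were grouped by their labels. The authors aligned reads to hg38 with Bowtie2, per the submitters' processing notes, which name MACS2 2.1.0. Version 2.2.7.1 stands in the file headers. Filters on mapping quality are not given in the sources used here. Per the file headers, each list was called on 1 ChIP library against its own input, keeping 1 tag per position. The deposited pileup is a signal, in ChIP tags extended to 148 bp (control) or 136 bp (TGF-β1). The deposited fold enrichment is a ratio to local background, and the deposited −log10 p and −log10 q come from the authors' peak caller. These are the peak's own values and served to describe, rank or filter peaks. Positions are the authors', 1-based. Depth is given with the results.

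Local background was computed as (pileup + 1)/fold − 1, and the −log10 p that it yields was within 0.00021 of each deposited value. Overlap counted from 1 bp. The monomer was taken as 171 bp. Chromosome 1 was compared from 120 to 145 Mb, chromosome 7 from 57 to 63 Mb and chromosome 12 from 33 to 39 Mb. Genes and promoter windows came from RefSeq tables of GRCh38.p14. Shares have Wilson, numbers exact Poisson and ratios exact conditional binomial intervals (Python 3.11.15, scipy 1.17.1), and scripts were tested on simulated data. Named peaks were, per list, the highest fold and pileup of each chromosome, the longest, the 5 highest by −log10 q, the 5 most isolated and the 10 overlapping pairs of highest TGF-β1 fold, from which the text takes examples. Tight runs, the surroundings of the ribosomal RNA genes and the empty spans were chosen after values were seen. The members and gene lists were chosen with earlier results of these data known. Alternatives were stricter q limits, a TGF-β1 list shortened to the control list's length by fold, narrower windows, other overlap rules, other distance rules and leaving out each chromosome. No test between conditions was made.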

Additional observations from a re-analysis of the deposited data

How the results depend on the processing

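No paired analysis was possible because each group had 1 library. Of 143 alternative values 95 kept within their limits, 47 moved and 1 reversed. At a −log10 q of at least 5, medians were 108.5 (pileup) and 2.29 (fold) in the control and 85 and 2.65 in the TGF-β1 list. At 10 or more, 127 control and 293 TGF-β1 peaks remained (ratio 2.31), overlap was 36.2% and 15.7%, control pileup 130, fold 2.51 and spacing 11590.5 bp, and TGF-β1 length 157 bp, pileup 93, fold 3.01 and spacing 4816 bp. With the TGF-β1 list shortened to the control list's length by fold, 79 peaks remained and the ratio reversed to 0.234, overlap was 0.888% and 3.80%, and TGF-β1 length was 153 bp, pileup 23, fold 4.26 and spacing 77295 bp. The monomer share of 0% there rests on 0 of 3 distances (interval up to 56.1%) and says nothing. Ranking by fold removes members by construction, as their folds are low. Without chromosome 13 there were 111 and 220 peaks (ratio 1.98), overlap was 9.91% and 5%, control length 192 bp, pileup 139, fold 1.95 and spacing 9273 bp, and TGF-β1 length 160 bp, pileup 25, fold 3.19 and spacing 19833 bp. Without chromosome 15 the TGF-β1 pileup was 81, fold 2.51 and spacing 2299 bp. Without chromosome 21 the ratio was 3.17 and control overlap 60%. Within 20 bp the monomer shares were 28.1% and 25.1%, where an even spread gives 24.3% in place of 12.4%, so a rise was built into that setting. Over low background alone, a choice made after seeing the data, 32 and 165 peaks gave a ratio of 5.16. A stricter q limit also lowers the numbers of peaks by construction. The cause of the remaining moves was not tested. With 1 library per condition, uneven input depth and repeats that reads cannot tell apart, counting intervals understate the error.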
